A study of Daphnia magna with 3 samples.

Results

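The hemocyte-share transcripts are 79 of the 33957 model transcripts of the water flea Daphnia magna. They are those with at least 50 reads over 21 libraries whose level in hemocytes was the highest of 7 body parts and made up at least 0.4 of the summed level. The level of a body part is the median over its 3 libraries of its CPM, the reads of a transcript scaled to a library of 1000000 reads. The share is the hemocyte level divided by the sum of the 7 levels. Among the 6738 transcripts with at least 50 reads, the 79 make up 1.17%, and hemocytes had the highest level for 439. The rule uses the hemocyte values themselves, so every hemocyte level below is a description of how the transcripts were chosen and supports nothing.

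Hemocytes are the circulating cells of the open body cavity of crustaceans and insects. In arthropods they engulf or encapsulate foreign particles, take part in clotting and in healing wounds, and supply parts of the enzyme cascade that deposits melanin. Daphnia has a long place in this field, since Metchnikoff described phagocytes from blood cells attacking fungal spores inside a living water flea.

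RNA of hemocytes, eggs, gut, antenna, head, carapace (the shell around the trunk) and carcass was sequenced as cDNA on an Oxford Nanopore instrument. All groups share the genotype IL-M1-8, a temperature of 20 °C, ADaM medium at 20 mL per adult and green algae at 100000 cells per mL. Each of the replicates 3, 4 and 7 is 1 barcoded pool holding all 7 body parts, so there are 3 libraries of each. The labels name no age, and leave unsaid how many animals a pool holds, whether 1 set of animals gave all its body parts, and whether pools stand for separate cultures. The p-values below therefore measure the spread over the libraries alone, and that spread may be technical. The table pairs no identifier with a gene name, and 0 of all 33957 matched the RefSeq gene table of assembly ASM2063170v1.1. Neither prophenoloxidase nor any other hemocyte marker could therefore be looked up, the hemocyte libraries rest on their barcode label alone, and no function is given for any transcript.

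The libraries held between 4161 and 1105094 reads, 4339322 in all. The hemocyte libraries of replicates 3, 4 and 7 had 59943, 102216 and 270725 reads, so 1 read was worth 16.7 CPM, 9.78 CPM and 3.69 CPM in these libraries. The gut library of replicate 4 stands apart, with 4161 reads, in which 1 read is worth 240 CPM and 1 member had a read. The choice of members, their rank over all 3 replicates and the counts of calls are given with and without it. Most other values include it. In bulk samples such as these, fewer cells of a type and less RNA per cell cannot be told apart.

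The label under which these transcripts were grouped calls them dominated by hemocytes, and the libraries go against that word. None of the 79 had all 3 hemocyte libraries above all 18 others, as was also so for every transcript with at least 50 reads. Within a replicate, hemocytes were the highest body part for 51 members in replicate 3, 33 in replicate 4 and 36 in replicate 7, and for 0 members in all 3 replicates. They were highest in 2 of 3 replicates for 44 members, in 1 for 32 and in none for 3. With the gut library of replicate 4 left out, 1 member was highest in hemocytes in all 3 replicates, against 6 among all transcripts with at least 50 reads. The highest of all 21 libraries was a hemocyte library for 43 members and a library of another body part for 36, of which 12 were gut, 7 carcass, 6 carapace, 5 head, 4 antenna and 2 eggs. The members are therefore called by the rule here, and not by a cell type.

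**Figure D1:**
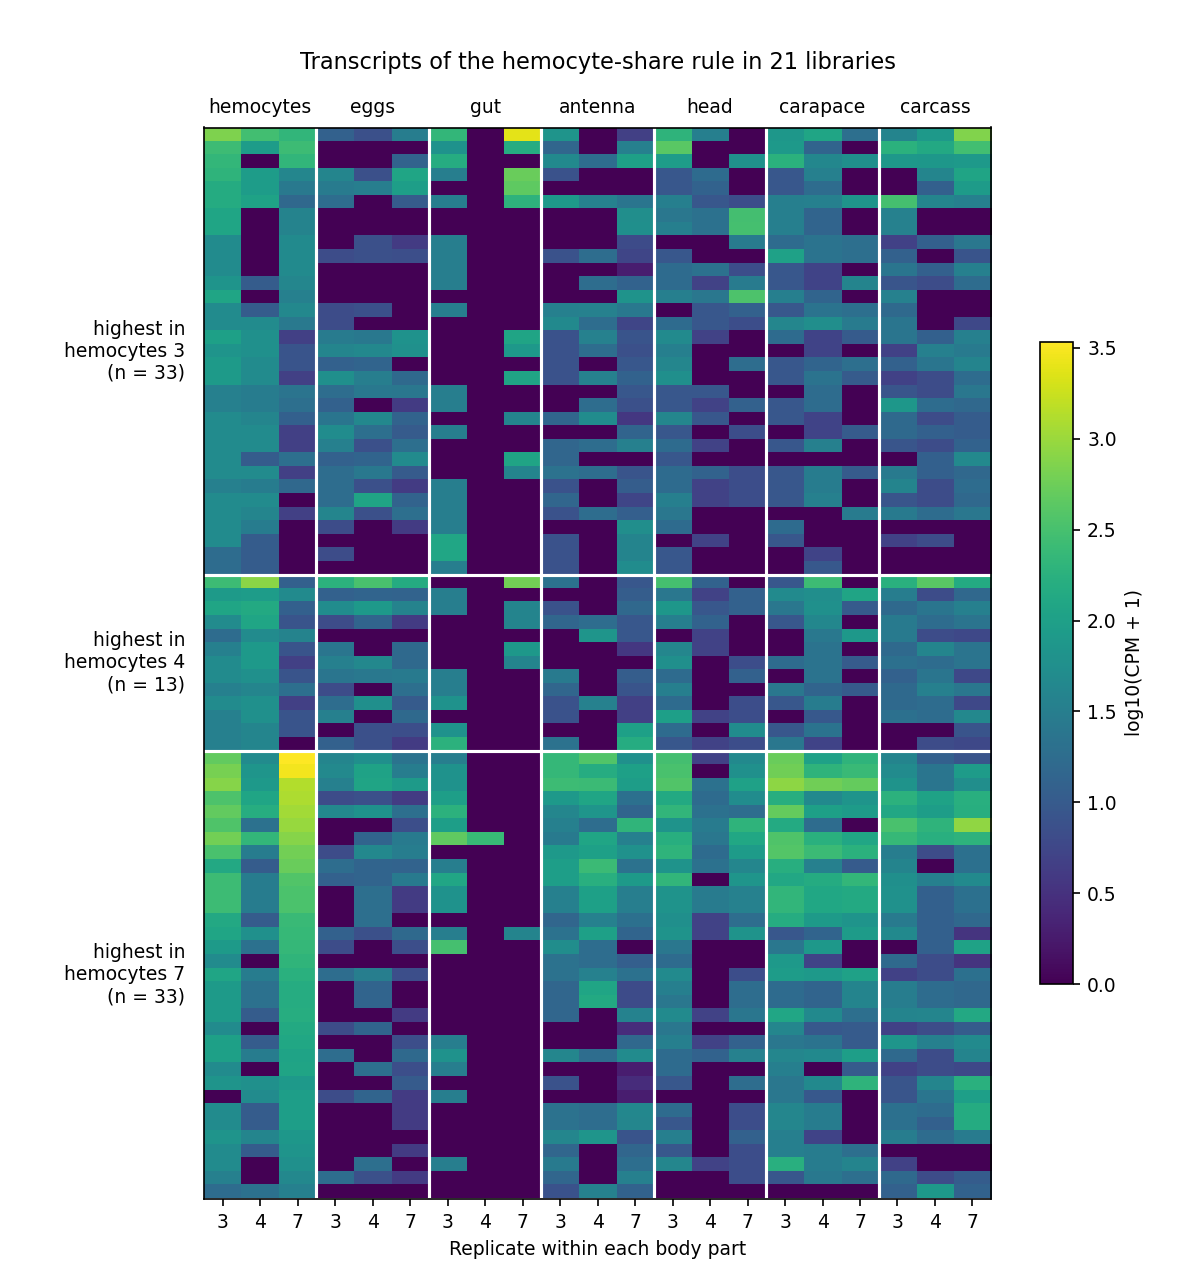
Level of each of the 79 hemocyte-share transcripts (rows, grouped by the hemocyte library in which they were highest) in each of the 21 libraries (columns, grouped by body part, hemocytes first), as log10 of CPM plus 1. Few rows are bright in all 3 hemocyte libraries, 19 have 0 reads in 1 of them, and the gut library of replicate 4 is empty but for 1 member.

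Summed over the 79, members took 1.10% ± 0.692 of the hemocyte reads (SD, n = 3). The hemocyte libraries spread widely around that mean, with 1.05% in replicate 3 (95% Wilson interval 0.976 to 1.14), 0.429% in replicate 4 (0.391 to 0.471) and 1.81% in replicate 7 (1.76 to 1.86). Such intervals cover counting error only. In the other body parts members took 0.438% ± 0.159 of the reads in carapace, 0.338% ± 0.129 in carcass, 0.290% ± 0.246 in gut, 0.254% ± 0.211 in head, 0.239% ± 0.0458 in antenna and 0.135% ± 0.0242 in eggs (SD, n = 3 each). Within each replicate hemocytes had the largest percent, which the rule favours. Next were carapace at 0.619% (0.577 to 0.665) in replicate 3, carapace at 0.374% in replicate 4 and gut at 0.508% in replicate 7. Across replicates the groups overlap. The hemocyte library of replicate 4 lay below those carapace and gut libraries of replicates 3 and 7. It also lay below the carcass library of replicate 7 at 0.478% and the head library of replicate 3 at 0.472%. Of the 5975 hemocyte reads of members, 82.1% came from replicate 7. The members had 10275 raw reads in the 18 libraries of the other 6 body parts, a count not scaled for depth.

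**Figure D2:**
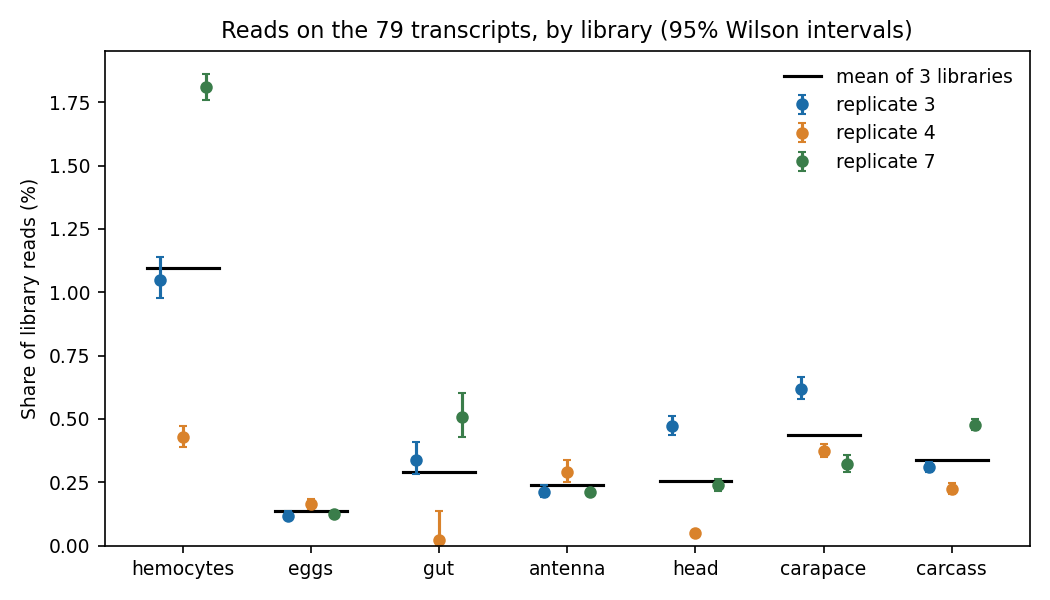
Percent of each library's reads on the 79 hemocyte-share transcripts, by body part with hemocytes first. Points are libraries with their 95% Wilson intervals, coloured by replicate, and bars are means of 3. Hemocytes span 0.429% to 1.81% and are the highest within each replicate. The lowest hemocyte library lies below 1 library each of gut, head, carapace and carcass, all of other replicates.

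The shares ran from 0.4 to 0.905 with a median of 0.451, and 23 members had a share of at least 0.5, 4 of at least 0.6 and 3 of at least 0.7. Few reads stand behind most of them. A member had 19.0 hemocyte reads in the median (2 to 958) and 89.0 reads in all (50 to 1287). Because the level is a median of 3, 1 hemocyte library sets it, and that library held 5.0 reads in the median, at most 9 reads for 55 members, at most 3 for 25 and at most 1 for 3. A hemocyte library had 0 reads for 19 members, which was replicate 4 for 12, replicate 7 for 6 and replicate 3 for 1. Over 100 hemocyte reads were counted for 14 members and under 10 for 13. Just 2 members held 1805 hemocyte reads, or 30.2% of the total, and the 10 with the most held 3959, or 66.3%.

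Just inside the rule lay snap_masked-falcon_000035F-processed-gene-7.6-mRNA-1 with a share of 0.4001 and 64 reads, of which hemocytes had 3, 8 and 1 in replicates 3, 4 and 7. Just outside it lay maker-falcon_000007F-augustus-gene-31.174-mRNA-1 with a share of 0.3998 and 1102 reads. Its hemocyte levels were 801, 558 and 835 CPM in replicates 3, 4 and 7, closer together than the 50, 78.3 and 3.69 CPM of the transcript inside. A further 352 transcripts passed the share but had fewer than 50 reads, 122 of them with 20 or more.

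**Figure D3:**
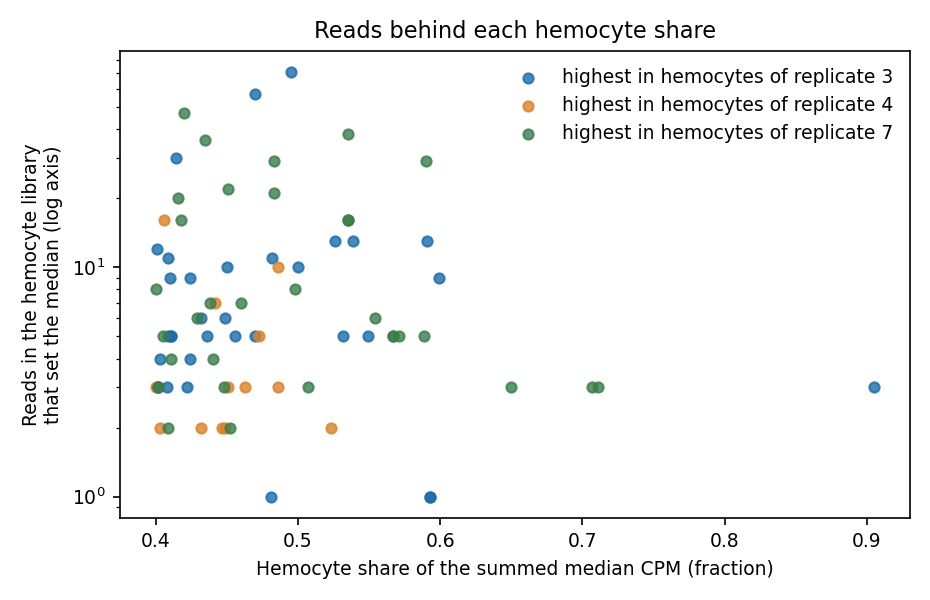
Hemocyte share of each member (horizontal axis) against the reads in the hemocyte library that set its median (vertical log axis), 1 point per transcript, coloured by the hemocyte replicate in which it was highest. The highest share, 0.905, rests on 3 reads in that library, and 55 of the 79 points lie at 9 reads or fewer.

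The 6 members with the largest share show how it arises. Hemocyte levels of augustus_masked-falcon_000000F-processed-gene-59.74-mRNA-1, with a share of 0.905, were 50, 29.3 and 0 CPM in replicates 3, 4 and 7, from 3, 3 and 0 reads. The antenna library of replicate 7 had 61 of its 74 reads, at 55.2 CPM, while the antenna libraries of replicates 3 and 4 had 0, so the antenna median was 0. Few hemocyte reads also stand behind augustus_masked-falcon_000081F-processed-gene-1.22-mRNA-1, with a share of 0.593: its 2 hemocyte reads gave 16.7, 9.78 and 0 CPM, against 38.0 CPM from 42 reads in antenna replicate 7 and 124 CPM from 4 reads in gut replicate 3. Antenna was second here, with a median of 6.73 CPM from 1 read. For 25 of the 79 members, antenna had more raw reads than hemocytes, and for another 25 hemocytes had more than any other body part. These counts are not scaled for depth, and antenna replicate 7 held 1105094 reads against 59943 to 270725 in the hemocyte libraries.

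A set of 3 members had the same pattern in hemocytes, with 50 CPM from 3 reads in replicate 3, 0 in replicate 4 and a higher level in replicate 7. The level in replicate 7 was 115 CPM (31 reads; 95% Poisson interval 77.8 to 163) for maker-falcon_000015F-snap-gene-10.95-mRNA-1, whose share was 0.711 and whose highest other library was carapace replicate 3 at 32.2 CPM. It was 140 CPM (38 reads; 99.3 to 193) for maker-falcon_000050F-snap-gene-2.35-mRNA-1, with a share of 0.707 and 40.2 CPM in the same carapace library. For maker-falcon_000036F-snap-gene-3.24-mRNA-1, with a share of 0.650, it was 203 CPM (55 reads; 153 to 264), against 80.4 CPM from 10 reads there. This last transcript had 0 reads in all 3 egg and all 3 gut libraries. The 0 in hemocyte replicate 4 has a 95% Poisson interval up to 36.1 CPM, which overlaps that of the 3 reads in replicate 3 (10.3 to 146 CPM). That upper limit lies below the replicate 7 intervals of all 3 transcripts.

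The remaining one of the 6, genemark-falcon_000031F-processed-gene-11.73-mRNA-1 with a share of 0.599, had reads in all 3 hemocyte libraries, at 150, 88.0 and 25.9 CPM in replicates 3, 4 and 7 (9, 9 and 7 reads). Eggs had 28.4, 31.4 and 95.1 CPM, carcass 0, 11.3 and 86.4 CPM, and gut 0, 0 and 455 CPM. Its highest library was thus gut replicate 7, from 12 reads.

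Scaled for length, as reads per kilobase of transcript and per 1000000 library reads, the highest hemocyte levels were those of 6 members with values from 372 to 1232. The highest was snap_masked-falcon_000036F-processed-gene-3.97-mRNA-1 at 1232 ± 1713 (SD, n = 3), an error larger than the mean. In CPM it had 484, 48.9 and 3413 in hemocytes of replicates 3, 4 and 7, from 29, 5 and 924 reads. It had 539, 105 and 198 CPM in carapace, 222, 376 and 58.8 CPM in antenna, 300, 4.01 and 46.1 CPM in head, 39.8, 56.5 and 21.5 CPM in eggs, 38.1, 11.3 and 7.20 CPM in carcass and 31.1, 0 and 0 CPM in gut. Hemocytes were below carapace in replicates 3 and 4, and far above every other body part in replicate 7.

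A like spread between hemocyte libraries was seen in the augustus_masked model on contig 000016F with the gene number 20.81, at 709 ± 890 per kilobase. Its hemocyte levels were 634, 68.5 and 2962 CPM in replicates 3, 4 and 7, against 579, 198 and 245 CPM in carapace and 45.5, 107 and 30.7 CPM in eggs. Hemocytes exceeded carapace in replicates 3 and 7 and not in replicate 4. For maker-falcon_000005F-augustus-gene-33.92-mRNA-1, at 760 ± 790 per kilobase, hemocytes had 350, 117 and 1237 CPM, carcass 183, 107 and 170 CPM, carapace 161, 46.2 and 66.0 CPM, and eggs 5.69, 6.28 and 3.07 CPM. In replicate 4 antenna lay above hemocytes, at 160 against 157 per kilobase, so hemocytes were highest in 2 of 3 replicates. This transcript is 1 of the 4 members with at least 10 reads in each hemocyte library.

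Another of these 4 is maker-falcon_000021F-augustus-gene-15.20-mRNA-1, at 372 ± 203 per kilobase, which varied less between hemocyte libraries. It had 601, 215 and 787 CPM in hemocytes of replicates 3, 4 and 7 (36, 22 and 213 reads), against 362, 172 and 122 CPM in carapace, 233, 169 and 194 CPM in carcass and 0, 12.6 and 27.6 CPM in eggs. Gut had 466, 240 and 0 CPM, where the 240 CPM is the 1 read of the shallow library. That read alone puts gut above hemocytes in replicate 4. Of the same 4, maker-falcon_000013F-augustus-gene-14.65-mRNA-1, at 402 ± 266 per kilobase, had 717, 293 and 214 CPM in hemocytes, against 217, 0 and 2426 CPM in gut and 38.1, 79.1 and 722 CPM in carcass. Its hemocytes were highest in replicates 3 and 4, while gut and carcass exceeded them in replicate 7. The last of the 4, maker-falcon_000015F-snap-gene-9.31-mRNA-4, had 484, 157 and 1116 CPM in hemocytes and 499, 101 and 84.8 CPM in carapace. The shortest member, maker-falcon_000008F-snap-gene-23.68-mRNA-1 at 189 bases, reached 415 ± 322 per kilobase from 100, 9.78 and 126 CPM in hemocytes.

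Members fell into groups by the hemocyte library in which they were highest, and these groups differed in their number of hemocyte reads. Of the 33 members highest in hemocyte replicate 7, which held 5029 of the hemocyte reads, the median levels were 100.1, 19.6 and 173.6 CPM in hemocytes of replicates 3, 4 and 7, and 33.64 CPM in carapace, 20.18 in antenna, 19.07 in carcass, 17.30 in head and 5.69 in eggs. The 33 members highest in hemocyte replicate 3 held 677 hemocyte reads, and their medians there were 50, 29.3 and 18.5 CPM. The 13 highest in replicate 4 held 269 hemocyte reads, with medians of 50, 58.7 and 7.4 CPM in hemocytes and 15.34 CPM in eggs. The value of 50 CPM is 3 reads in hemocyte replicate 3.

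Carapace was the second body part for 24 members, and 19 of these were highest in hemocyte replicate 7, with 36.5 hemocyte reads in the median. Eggs were second for 17, of which 12 were highest in hemocyte replicate 3, 5 in replicate 4 and 0 in replicate 7, with 11 hemocyte reads in the median. Carcass was second for 18, of which 8, 4 and 6 were highest in hemocyte replicates 3, 4 and 7. Antenna was second for 10 (5, 1 and 4) and head for 8 (4, 1 and 3), close to the split of 33, 13 and 33 over all 79, and gut for 2. The carapace and egg groups departed from that split, and the part of read depth in this was not tested.

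One hemocyte measure did not enter the choice. When the rule was applied to 2 replicates, the transcripts it chose could be read in the replicate left out. In replicate 3, hemocytes were highest for 16 of 63 such transcripts, or 25.4% (95% Wilson interval 16.3 to 37.3), against 7.55% of the 5877 transcripts that had at least 50 reads in the replicates used and a read in this one. In replicate 4 they were highest for 2 of 61, or 3.28% (0.904 to 11.2), against 17.8% of 5958. In replicate 7 they were highest for 0 of 12, or 0% (0 to 24.2), against 7.23% of 4371. The intervals count transcripts as independent, although all are read in the same libraries, and do not cover the spread over replicates. The median hemocyte share in the replicate left out was 0.218 against 0.119 for replicate 3, 0.081 against 0.170 for replicate 4 and 0.059 against 0.093 for replicate 7, with the transcripts chosen given first in each case.

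**Figure D4:**
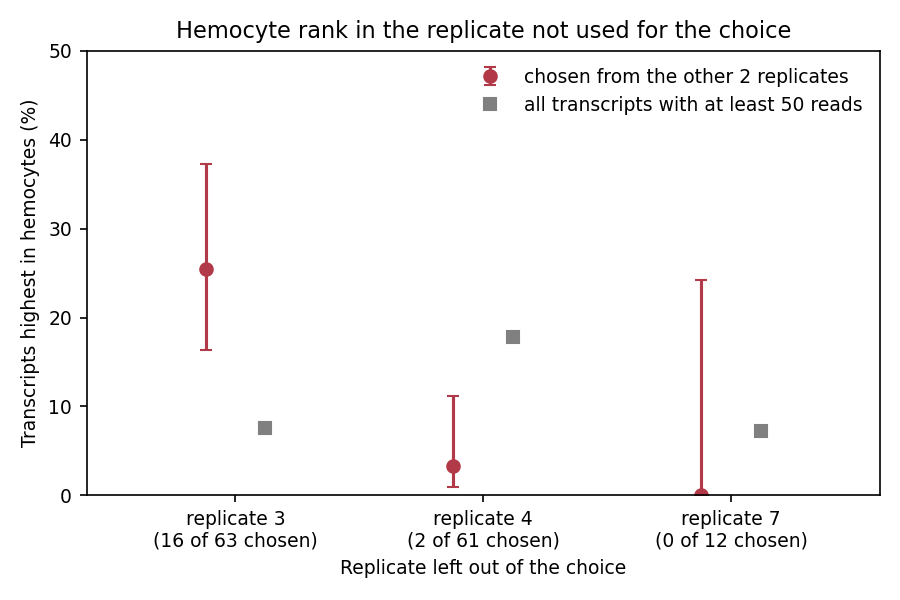
Percent of transcripts with hemocytes as the highest body part in the replicate left out, for those chosen by the same rule from the other 2 replicates (points with 95% Wilson intervals) and for all transcripts with enough reads (squares). The chosen transcripts lie above all transcripts in replicate 3 (25.4% against 7.55%), below in replicate 4 (3.28% against 17.8%), and in replicate 7 the interval around 0 of 12 takes in the 7.23% of all transcripts. The intervals count transcripts as independent and do not cover the spread over replicates.

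The choice itself changed with the replicates: 63, 61 and 12 transcripts were chosen without replicates 3, 4 and 7, of which 21, 21 and 4 were among the 79. A scaling by trimmed mean of M-values (TMM), which corrects for a few abundant transcripts, gave 50 transcripts, 39 of them members. Without the gut library of replicate 4 the rule kept 48, all members, and lost 31. In replicate 3 the held-out value was 12.7% against 9.94% of all transcripts under TMM scaling, and 15.0% against 9.10% with a minimum of 20 reads.

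The levels outside hemocytes were tested in the 18 libraries of the other 6 body parts, which entered the rule through their medians in the sum and the maximum. A filter on low counts kept 23 of the 79 members among 4027 transcripts. These 23 had 252.0 reads in the 18 libraries in the median, against 52.5 for the 56 that were not tested, so they are the more abundant members and do not stand for all 79. A transcript passed the filter with at least 60.1 CPM in 3 libraries, so some passed through 1 body part alone. A transcript high in another body part could also less easily reach the hemocyte share, so the counts of calls below describe the members and are no independent evidence of a direction. Each body part was set against the mean of the other 5 on the log scale with edgeR's quasi-likelihood test and Benjamini-Hochberg adjustment over all 4027, at a threshold of 0.05. A joint test called 19 of the 23 as differing among the 6 body parts, where 41.2% of all transcripts tested were called, and 10 of these calls held in all of the alternatives tried. The smallest joint p-values were those of maker-falcon_000004F-snap-gene-1.38-mRNA-1 (adjusted p = 3.49e-05, edgeR) and maker-falcon_000015F-augustus-gene-8.28-mRNA-3 (adjusted p = 4.18e-05, edgeR). Without replicate 4, the joint test called 12 of 29 members, where 18.1% of all transcripts were called.

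Of the 23 that passed the filter, more were called higher in carapace than in any other body part, while without the filter 23 of all 79 were higher in antenna (6.83% of all transcripts) and 20 in carapace (3.55%). In carapace 11 of the 23 were higher and 0 lower, where 13.0% of all transcripts tested were called higher and 0.397% lower. The carapace and egg counts here take 2 members of contig 000029F with identical reads as 2 calls, although they are 1 read pattern. The median log2 fold change of the 23 was 1.59, against 0.08 over all transcripts tested. Among the 23, 3 failed the filter without their carapace libraries, so at least 1 carapace library had to be high, and 2 of the 3 are among the 11. Of the 3, maker-falcon_000038F-augustus-gene-2.135-mRNA-1 also failed without its gut libraries and without its carcass libraries. Of the 20 others 9 were higher in carapace, as were 383 of the 3823 transcripts that passed without carapace. In all 28 alternatives 7 of the 11 calls held, but these 7 include the 2 calls that the filter favoured, which add no support. In eggs 14 were lower and 0 higher, where 23.8% of all were called lower and 22.2% higher, with a median of -2.36 against 0.07. Egg levels stand in the denominator of the share, so transcripts high in eggs were mostly kept out of the 79 and this lack of higher calls was partly set by the rule. Beside that 0, 17 of the 23 had an unadjusted p under 0.05 in either direction. DESeq2 called 0 of 23 higher (37.6% of all transcripts), and a fit without the filter called 1 of 79 (7.57%). With another scaling (relative log expression) the median of all transcripts moved by 0.57 in eggs, and the members' median was then -1.87.

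**Figure D5:**
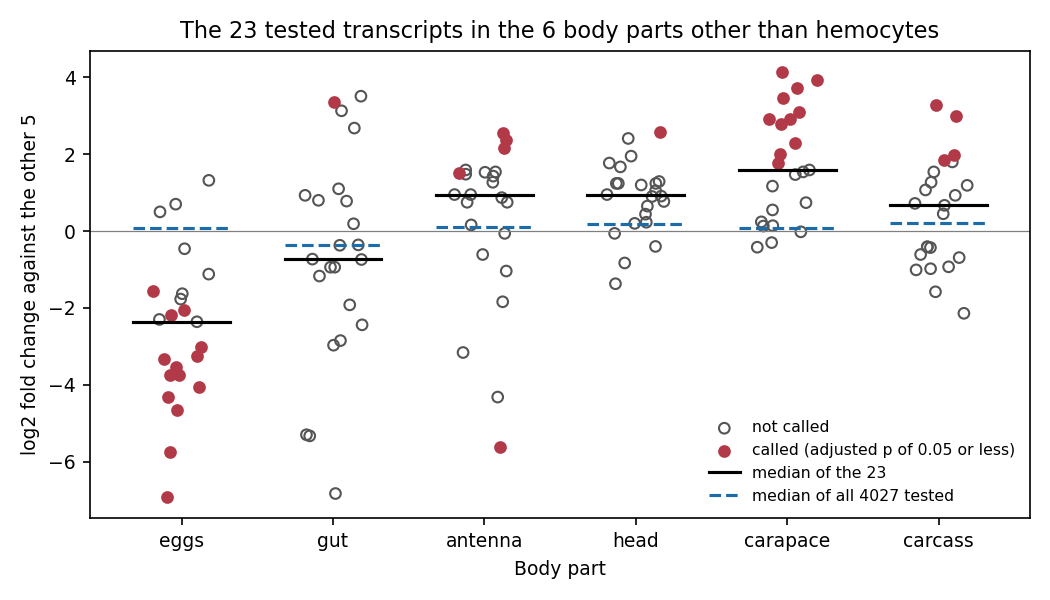
Log2 fold change of each of the 23 tested members in each body part against the mean of the other 5, from the 18 libraries without hemocytes, with called members marked, beside the median over all 4027 transcripts tested. Where a body part had 0 reads, the fold depends on the prior count. The members lie mostly above that median in carapace (20 of 23 above 0) and below it in eggs (3 of 23 above 0).

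The carapace calls were led by maker-falcon_000004F-snap-gene-1.38-mRNA-1. It had 386, 252 and 179 CPM in carapace of replicates 3, 4 and 7, against 80.7, 102 and 60.6 CPM in antenna, 195, 16.0 and 86.5 CPM in head, 5.69, 44 and 30.7 CPM in eggs, 30.5, 5.65 and 19.2 CPM in carcass and 0 in gut. Within each replicate carapace was the highest of the 6, while over all replicates head replicate 3 lay above carapace replicate 7. The mean was 272 ± 105 CPM (SD, n = 3) in carapace and 45.1 ± 53.5 CPM in the other 15 libraries (adjusted p = 1.42e-05, edgeR). As gut had 0 reads, the fitted fold depends on the prior count and is not given. The hemocyte levels of this transcript were 334, 29.3 and 606 CPM, below carapace in replicates 3 and 4.

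A similar order was seen in maker-falcon_000015F-augustus-gene-8.28-mRNA-3, which had 869, 584 and 499 CPM in carapace, against 373, 20.1 and 104 CPM in head, 262, 256 and 92.3 CPM in antenna, 34.1, 113 and 82.8 CPM in eggs, 64.8, 22.6 and 55.2 CPM in carcass and 62.1, 0 and 0 CPM in gut. The 3 carapace libraries lay above all 15 others. The log2 fold change in carapace was 3.45 ± 0.44 (SE, adjusted p = 9.65e-06, edgeR). Its hemocyte levels were 784, 78.3 and 1319 CPM, above carapace only in replicate 7.

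On contig 000029F, maker-falcon_000029F-augustus-gene-1.52-mRNA-1 had 153, 84.1 and 66.0 CPM in carapace, against 56.8, 4.01 and 17.3 CPM in head, 13.5, 34.2 and 19.0 CPM in antenna, 26.7, 11.3 and 14.4 CPM in carcass, 0, 18.8 and 0 CPM in eggs and 0 in gut. It passed the filter only through its carapace libraries, so no test is given. Its hemocyte levels were 133, 9.78 and 247 CPM. Its neighbours by name, maker-falcon_000029F-augustus-gene-0.74-mRNA-1 and maker-falcon_000029F-augustus-gene-1.51-mRNA-1, had identical counts in all 21 libraries and are 1 read pattern. That pattern had 209, 126 and 141 CPM in carapace (2.91 ± 0.50 on the log2 scale, adjusted p = 1.88e-04, edgeR).

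Among the members with the highest hemocyte level per kilobase, the carapace call of the augustus_masked model numbered 20.81 on contig 000016F (2.78 ± 0.54, adjusted p = 6.44e-04, edgeR) held in all alternatives. That of snap_masked-falcon_000036F-processed-gene-3.97-mRNA-1 (3.09 ± 0.58, adjusted p = 4.71e-04, edgeR) was lost without carapace replicate 3, at an adjusted p of 0.0588.

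In eggs the lowest was maker-falcon_000067F-augustus-gene-1.97-mRNA-2, with 0 reads in the 3 egg libraries against 303 in the other 5 body parts. Its level in eggs was at least 20.4-fold below the mean of the rest, 92.6 CPM, taking 3 reads over the egg libraries as the floor (adjusted p = 0.00149, edgeR). Head replicate 3, at 430 CPM from 53 reads, raised that mean. The call was lost without replicate 3 or without head replicate 3. Next came maker-falcon_000004F-snap-gene-34.25-mRNA-1, with 0, 0 and 6.13 CPM in eggs of replicates 3, 4 and 7, and a mean of 2.04 ± 3.54 CPM in eggs against 148 ± 230 CPM in the other 15 libraries. Its log2 fold change was -5.74 ± 1.29 (SE, adjusted p = 0.00139, edgeR), and that call was lost without replicate 3 or without gut replicate 3. Over the libraries left out, the number of egg calls changed: 14 of 23 members were lower with all 18 libraries, 3 of 28 without replicate 3, 4 of 30 without gut replicate 3 and 9 of 29 without eggs replicate 3. Calls over all transcripts fell too, to 7.74%, 11.5% and 16.1% without these, against 23.8% with all 18. For maker-falcon_000015F-augustus-gene-8.28-mRNA-3 the egg call (-1.57 ± 0.59, adjusted p = 0.0336, edgeR) turned to 0.08 without replicate 3, and with the replicate number as a block its adjusted p was 0.0537.

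The same pair led the carcass calls, of which there were 4 higher and 0 lower, where 3.08% of all transcripts were called higher and 0.0497% lower. In carcass maker-falcon_000004F-snap-gene-34.25-mRNA-1 had 332, 198 and 897 CPM, against 33.6, 17.1 and 205 CPM in antenna, 64.9, 28.1 and 196 CPM in head, 145, 16.8 and 0 CPM in carapace and 93.2, 0 and 0 CPM in gut. The carcass was the highest of the 6 in every replicate (3.29 ± 0.68, adjusted p = 0.00401, edgeR), and hemocytes had 367, 19.6 and 971 CPM. The carcass levels of maker-falcon_000067F-augustus-gene-1.97-mRNA-2 were 179, 136 and 290 CPM, against 430, 0 and 0 CPM in head, 80.4, 12.6 and 0 CPM in carapace, 62.1, 0 and 152 CPM in gut and 13.5, 0 and 33.5 CPM in antenna (adjusted p = 0.0152, edgeR). Head replicate 3 exceeded all 3 carcass libraries, and hemocytes had 267, 88.0 and 262 CPM. Both carcass calls were lost without replicate 4 (adjusted p = 0.122 and 0.167) and without carcass replicate 7 (0.0745 and 0.0816). Without replicate 3 there were 8 carcass calls among 28 members (4.87% of all transcripts), and without carcass replicate 7 there was 1 among 27 (2.33%). Without replicate 4 there were 0 among 29 (0.555% of all). DESeq2 made 1 carcass call (2.19% of all).

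In antenna 4 members were called higher and 1 lower, where 14.0% of all transcripts were called higher and 4.10% lower. Of the 4, snap_masked-falcon_000036F-processed-gene-3.97-mRNA-1 averaged 219 ± 159 CPM in antenna against 93.2 ± 149 CPM in the other 15 libraries (2.55 ± 0.61 on the log2 scale, adjusted p = 0.00492, edgeR), a call lost without replicate 4 or antenna replicate 4. For maker-falcon_000015F-snap-gene-22.74-mRNA-1 antenna had 94.2, 256 and 20.8 CPM, and hemocytes 133, 9.78 and 525 CPM. It failed the filter without its antenna libraries, so the filter favoured a call there and no test is given. Its call was lost in 5 alternatives. The other calls were those of maker-falcon_000004F-snap-gene-1.38-mRNA-1 and maker-falcon_000015F-augustus-gene-8.28-mRNA-3, named here after their values were seen. Their mean CPM hardly differed, at 81.3 in antenna against 83.4 in the rest and 204 in antenna against 192 in the rest, and antenna lay above the rest in 1 of 3 replicates. The test compares averages of logs, and gut had 0 reads of the first and 2 of the second.

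The member lower in antenna, genemark-falcon_000031F-processed-gene-11.73-mRNA-1, had 0 antenna reads against 100 in the other 5 body parts. It failed the filter without its egg libraries, without its gut libraries or without its carcass libraries. High libraries in the rest thus favoured the call, so no test is given. With 3 reads over the antenna libraries as the floor, its antenna level was at least 21.9-fold below the mean of the rest, 50.2 CPM. That mean was raised by gut replicate 7, at 455 CPM from 12 reads, and the fold without this library was not computed. The call was lost in 9 of 27 alternatives. Antenna calls were unsteady over single libraries, with 1 of 29 higher without replicate 4 (8.39% of all transcripts), 8 of 33 without head replicate 3 (14.2%) and 8 of 32 without carapace replicate 3 (13.9%).

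In head 1 member was called higher and 0 lower, where 2.73% of all transcripts were called higher and 0% lower. That was maker-falcon_000004F-snap-gene-1.38-mRNA-1 at 99.1 ± 90.0 CPM in head against 79.8 ± 112 CPM in the rest (adjusted p = 0.0262, edgeR), higher in 2 of 3 replicates and lost in 9 of 28 alternatives. In gut 1 was higher and 0 lower, where 0.422% were called higher and 0.0993% lower. This was maker-falcon_000013F-augustus-gene-14.65-mRNA-1 at 881 ± 1342 CPM in gut against 93.0 ± 182 CPM in the rest (3.37 ± 0.76, adjusted p = 0.0453, edgeR). Its gut levels were 217, 0 and 2426 CPM; it was higher in 2 of 3 replicates and was lost in 18 of 27 alternatives, at an adjusted p of 0.246 with the block. No member was called lower in carapace, carcass, head or gut by edgeR, DESeq2 or limma voom. At most 1.24% of all transcripts were called lower there (carapace, DESeq2). In these body parts 14, 8, 8 and 8 of the 23 had an unadjusted p under 0.05 in either direction.

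In their gene models the members were shorter than the transcripts they were drawn from, with a median length of 1507 bases (189 to 9207) against 2632 for all transcripts with at least 50 reads. Under 1 kilobase were 21 members, or 26.6%, against 15.5%. The prefix of the identifiers was maker for 64 members (81.0% against 76.1% of all with at least 50 reads), augustus_masked for 7 (8.86% against 9.28%), snap_masked for 5 (6.33% against 4.42%) and genemark for 3 (3.80% against 10.2%).

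Members lay on 36 of the 572 contigs, and 12 contigs with 3 or more held 49 of them. Contig 000021F held 6 members among 168 transcripts with at least 50 reads (3.57%), 000029F held 5 of 49 (10.2%) and 000036F held 5 of 89 (5.62%). Against these, 1.17% of all such transcripts are members, a figure given with no test because members on a contig can share reads. In 6 pairs, all on their own contig, the summed difference in reads over the 21 libraries was at most 10% of their reads, so that 9 members form pairs or trios and the 79 hold 74 distinct read patterns. The largest set is maker-falcon_000024F-augustus-gene-2.106-mRNA-1, maker-falcon_000024F-augustus-gene-17.49-mRNA-1 and maker-falcon_000024F-snap-gene-2.73-mRNA-1, with 153, 159 and 172 reads. Levels of such members are uncertain, as the counting could split or repeat reads between near-identical models. A further 3 members matched a transcript outside the 79 in the same way.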

How the data were processed

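Nanopore cDNA of 7 body parts in 3 replicate pools was counted as 21 libraries. The authors deposited 1 table with the count of whole reads per model transcript and library, and, in another unit, the transcript length in bases. SAMtools and DESeq2 are named in the submitters' processing notes, without their versions. Aligner, genome build, annotation and strand setting: not given in the sources used here. The deposited column of 1 per-sample normalized value was not used. The members and lists were chosen with earlier results of these data known.

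Counts were turned into CPM with library totals of 4161 to 1105094 reads. Tests used edgeR 4.0.16 in R 4.3.3 on the 18 libraries without hemocytes: filterByExpr (minimum count 10), TMM factors (0.24 to 2.04), 1 mean per body part, two-sided tests, Benjamini-Hochberg adjustment over 4027 transcripts, threshold 0.05. The fit was tested on simulated data. Of the 23 members tested, 5 had a body part with 0 reads. A contrast averages fitted logs, so a fold then depends on the prior count.

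The transcripts named are the 6 with the largest share, the 6 with the highest hemocyte level per kilobase, the 6 with the smallest joint p, up to 2 calls in each direction per body part, those beside the threshold, and those sharing a contig. Any other is said to be named after its values were seen.

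Per the labels, 1 number stands for 1 barcoded pool, so same-numbered libraries are paired, and a block on the number was an alternative. Over 45 same-numbered pairs the median correlation of deviations from body part means was 0.065, with 18 above 0.1, and over 90 other pairs it was -0.046. By a chi-square test of counts, no pair of libraries from 1 body part was within sampling noise of each other. The alternatives were relative log expression factors, DESeq2 1.42.0, limma 3.58.1 with voom, other filters, all 21 libraries in the fit, the block, and leaving out each replicate or library.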

Additional observations from a re-analysis of the deposited data

How the results depend on the processing

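Against the 79 chosen, the rule chose 50 under TMM-scaled CPM (39 shared), 37 with the mean of replicates (19 shared), 18 with a minimum of 200 reads, 48 without the gut library of replicate 4 and 100 with a minimum of 20 reads (34 shared). Leaving out a replicate or a hemocyte library gave 12 to 100; the hemocyte libraries were left out as an alternative chosen after seeing the data, gave 100 each, and shared 27, 43 and 37 members. The held-out value of replicate 3 was 15.0% with a minimum of 20 reads (9.10% of all transcripts) and 12.7% under TMM scaling (9.94%). Without gut replicate 4 it was 23% (7.55% of all transcripts). Leaving out that gut library gave 6.56% in replicate 4, below the 19.3% of all transcripts, and 0% in replicate 7, against 7.21%.

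Without the filter all 79 members were tested among 19392 transcripts. Jointly 55 were called (16.2% of all transcripts), 1 was higher in eggs (7.57%), 3 in gut (0.320%), 23 in antenna (6.83%), 5 in head (2.01%), 20 in carapace (3.55%) and 16 in carcass (2.42%), and 4 were lower in antenna (1.17%). A filter on all 21 libraries gave 2 of 33 higher in head (2.65%) and 7 in carcass (3.22%), and a fit to all 21 gave 2 of 33 in antenna (12.7%). Of 23, relative log expression factors gave 0 in head (2.14%) and 2 in carcass (2.48%). DESeq2 gave 0 in gut (0.298%), 0 in head (1.72%), 1 in carcass (2.19%) and 2 lower in antenna (5.77%). Limma voom gave 0 in gut (0.0248%), 0 in head (1.44%), 2 in antenna (10.4%), 0 lower in antenna (4.67%) and 2 in carcass (2.06%).

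Under the replicate block, which follows the pairing by pool, 0 of 23 members were higher in gut (0.149% of all transcripts) and 2 lower in antenna (3.92%). Eggs had 11 lower (24.2%), carapace 10 higher (13.7%) and carcass 3 (3.10%), and 19 were called jointly (42.3%). The block ended 6 calls, with adjusted p (edgeR) of 0.0537, 0.0638 and 0.0592 in eggs, 0.246 in gut, 0.0540 in carapace and 0.0994 in carcass, and changed no other call that the text names.

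Over the replicates and libraries left out, joint calls were fewest without replicate 4, at 12 of 29 (18.1% of all transcripts). Higher calls were also fewest there in antenna at 1 (8.39%), head at 0 (1.27%) and carcass at 0 (0.555%). Without replicate 3, the fewest were lower in eggs, 3 of 28 (7.74%). The most were then higher in carcass, 8 (4.87%), and gut, 3 (0.389%), and lower in antenna, 4 (1.78%). Joint calls were most without head replicate 3, 27 of 33 (46.4%), with 8 higher in antenna (14.2%), the most there. Lower in eggs were at most 16 of 31 (22.7%, without gut replicate 7), and 0 to 1 were higher (23.7% in that fit). Higher in carapace were 10 of 32 (8.34%) without carapace replicate 3 to 16 of 30 (14.1%) without gut replicate 3. Higher in head were at most 3 of 32 (2.86%), without carapace replicate 3. No member was lower in gut, head, carapace or carcass, where at most 0.803% of all transcripts were (gut, without replicate 3). Without the shallow gut replicate 4, 24 of 33 were called jointly (39.2%) and 13 were lower in eggs (22.0%). Higher were then 12 in carapace (10.8%), 5 in carcass (2.94%), 5 in antenna (13.2%), 2 in head (2.52%) and 0 in gut (0.210%). Leaving out a library also changes which transcripts pass the filter and how many of all are called. Over 55 named results, 1318 alternatives kept the call, 215 ended it and 1 turned the direction: maker-falcon_000015F-augustus-gene-8.28-mRNA-3 in eggs, at 0.08 without replicate 3 (range -2.03 to 0.08 over the replicates and libraries left out). The cause was not tested. Depth limits the shares: with hemocyte libraries of 59943 to 270725 reads, 55 of 79 members have at most 9 reads in the library that sets the level.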
